A study of Homo sapiens with 2 samples.

Results

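CASP14 and CRABP2, a pair of protein-coding genes of epithelial cells, were followed cytosine by cytosine in bisulfite-treated RNA. The members were the cytosines on the same-strand exons of the 2 genes with a coverage of at least 10 reads, which gave 82 cytosines of CASP14 and 48 of CRABP2 in MCF10A, out of 1584002 kept sites in that library. In MDA-MB-468 there were 564 cytosines of CASP14 and 255 of CRABP2, out of 1271253. Kept sites are those with that coverage on exons of GENCODE release 44 basic transcripts (GRCh37) or on the mitochondrial chromosome. The 2 genes were selected on these data, with their difference between the lines already known, so that difference is described here and carries no test of its own.

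The study compared the m5C methylome of MCF10A, a non-tumorigenic mammary epithelial cell line, with that of MDA-MB-468, which derives from a breast cancer. In RNA bisulfite sequencing, sodium bisulfite turns unmodified cytosine into uracil, while 5-methylcytosine (m5C) stays unconverted, as does any cytosine that the reagent did not reach. Poly(A)-selected RNA was used, with 1 library per line and no replicates, so a difference between lines is a difference between 2 libraries. The methods give DMEM/F12 with horse serum, EGF, hydrocortisone and insulin for MCF10A and RPMI with fetal bovine serum for MDA-MB-468, whereas the labels give DMEM for both, so the line and its medium cannot be told apart.

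CASP14 encodes caspase-14, a caspase of terminally differentiating keratinocytes that takes part in the breakdown of filaggrin in the cornified layer of skin and is not a classical executioner of apoptosis. CRABP2 encodes cellular retinoic acid-binding protein 2, which carries retinoic acid to nuclear retinoic acid receptors and is itself a retinoid-responsive gene in epithelia. Both transcripts are spliced, with untranslated regions (UTRs) on either side of the coding sequence (CDS).

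The CASP14 transcript used for positions (ENST00000427043.4_3) lies on the plus strand at chr19:15160291-15169104 and has 7 exons, 3145 nt and 890 cytosines. Its 3′UTR, 2204 nt long, lies wholly in exon 7 and holds 659 of these cytosines. The CRABP2 transcript (ENST00000368222.8_6) lies on the minus strand at chr1:156669398-156675375 and has 4 exons, 974 nt and 276 cytosines. Its 5′UTR measures 137 nt, its CDS 417 nt and its 3′UTR 420 nt.

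The stretches on which the results turn are printed here, 5′ to 3′ in the direction of the RNA and read from GRCh37, with the cytosines called as m5C sites in the named line in capitals and all other bases in lower case. The first 2 show parts of the 5′UTR and 3′UTR of CASP14 in MCF10A, where long series of neighbouring cytosines were almost fully unconverted.
CASP14 5′UTR, exon 1, MCF10A calls, chr19:15160328-15160348: CaCaCtgtcagcCCCttCtCc
CASP14 3′UTR, exon 7, MCF10A calls, chr19:15168080-15168109: CtCCaagCgttCCCtggtatCCtCaaCCtC
The next shows CASP14 in MDA-MB-468, at the start of the series of called cytosines with the highest summed share. The highest single sites of that series lie downstream of the printed bases.
CASP14 3′UTR, exon 7, MDA-MB-468 calls, chr19:15167997-15168026: CCagCtttgaCCtttCCtgCtCaagtaaCC
The last 3 show CRABP2 in MCF10A, with the 5′UTR and 3′UTR stretches that were almost fully unconverted and the coding stretch that was not.
CRABP2 5′UTR, exon 1, MCF10A calls, chr1:156675309-156675338: aaCCtgaCgaCCCggCgaCggCgaCgtCtC
CRABP2 CDS, exon 2, MCF10A calls, chr1:156670779-156670808: CagCgtCCaagCCagCagtggagatCaaaC
CRABP2 3′UTR, exon 4, MCF10A calls, chr1:156669687-156669716: CCCCttaCCCCagtCaCttCtgggggtCaC
The capitals stand in many sequence contexts. Of the called CASP14 cytosines in MCF10A, 4 of 82 preceded a G and 24 preceded another C, and for CRABP2 8 of 48 preceded a G and 13 preceded a C.

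The depth of the libraries sets what can be read at these genes. The kept sites summed to 60580227 counts for MCF10A and 42429746 for MDA-MB-468, and the median coverage of nuclear kept sites was 18 in each. The background, that is the unconverted share of all counts at kept sites, was 1.99% and 1.81%. Intervals in the text are 95% Wilson intervals. They cover counting error in 1 library only, and since no molecular identifiers are described and neighbouring cytosines share reads, they are too narrow even for that. The identity of the cells rests on the cell line named in the labels. As a check, 4 genes of epithelial cells were looked up after the data were seen. The keratin genes KRT8 and KRT18 had 234 and 105 kept cytosines in MCF10A, with median coverages of 47 and 41, and 258 and 250 in the other line, with 276 and 39.5. The adhesion genes EPCAM and CDH1 had none in MCF10A, but 175 and 108 in the MDA-MB-468 library. In MCF10A the check was thus met by the keratin genes only.

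CASP14 was read far more deeply in MDA-MB-468 than in MCF10A. Its kept cytosines in MCF10A had coverages of 10 to 15 reads (median 11) and came to 15.2 CPM, scaled to the sum of the kept nuclear counts. In MDA-MB-468 its coverages ran from 10 to 1291 reads (median 102) and came to 2855 CPM. The coverages of CRABP2 were 10 to 16 reads (median 12) in MCF10A and 10 to 1551 reads (median 452) in MDA-MB-468, or 10.2 and 2949 CPM. These sums depend on the coverage minimum, since with 5 reads in place of 10 CASP14 came to 56.4 CPM in MCF10A but 2882 in the other line, and CRABP2 to 23.1 and 2949. The minimum was lowered for the 2 genes only, and the sum used for scaling stayed that of sites with at least 10 reads. In bulk RNA, fewer cells with a transcript and less of it per cell cannot be told apart. The share of cytosines that reached the minimum of 10 differed as well. In MCF10A 9.21% of the CASP14 cytosines and 17.4% of those of CRABP2 did, against 63.4% and 92.4% in MDA-MB-468. The members of MCF10A are therefore a small set of short stretches, while in MDA-MB-468 every cytosine of the first 6 exons of CASP14 and of exons 2 and 3 of CRABP2 was a member. An alternative first exon of CRABP2 held no site in either file.

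In MCF10A most counts over these genes were unconverted. For CASP14, 900 of 918 counts were unconverted, 98% (96.9% to 98.8%), and the site values ran from 70% to 100% with a median of 100%. For CRABP2, 507 of 614 counts were unconverted, 82.6% (79.4% to 85.4%), with site values from 33.3% to 100% and a median of 92%. All 82 cytosines of CASP14 and all 48 of CRABP2 were called as m5C sites when tested one-sided by Fisher's exact test relative to the background, with Benjamini-Hochberg adjustment at 0.05. A call says that more reads stayed unconverted than the background gives, not that the cytosine carried m5C. Over all kept sites of MCF10A 0.960% were called. Since the genes were chosen with these values known, nothing is read from that contrast. In MDA-MB-468 the shares of the same transcripts were lower. For CASP14, 3081 of 120079 counts were unconverted, 2.57% (2.48% to 2.66%), and 85 of 564 cytosines were called. For CRABP2, 1694 of 124037 counts were unconverted, 1.37% (1.30% to 1.43%), and 1 of 255 cytosines was called. Over all kept sites of MDA-MB-468 0.840% were called.

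**Figure D1:**
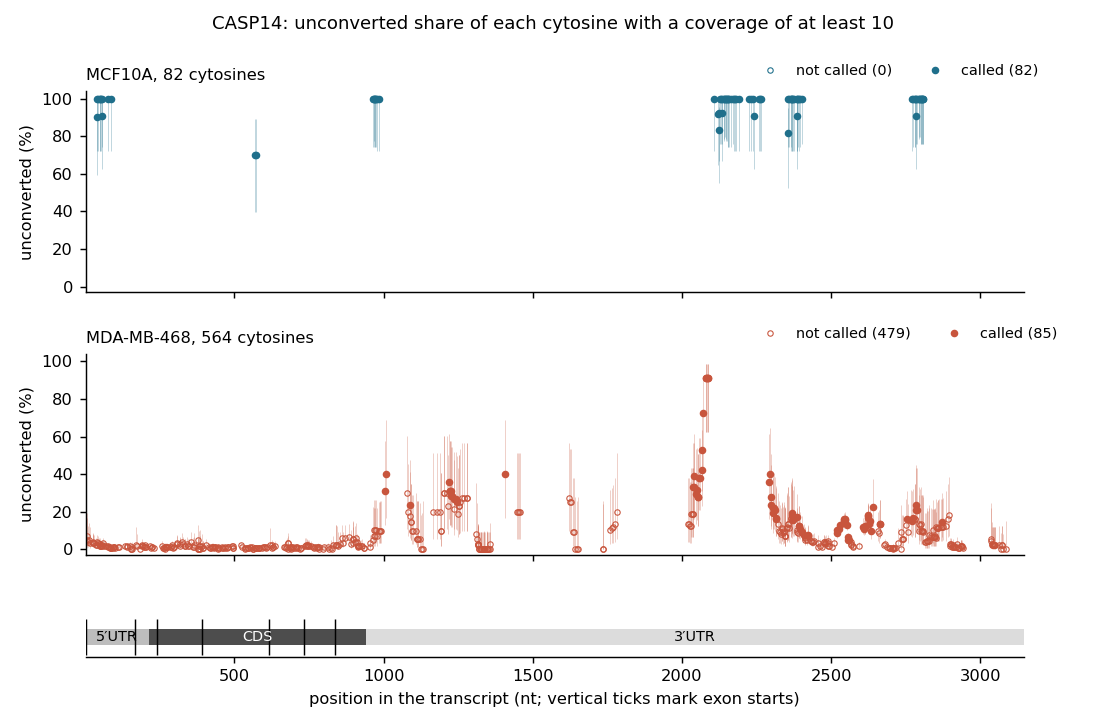
Unconverted share (%) of each CASP14 cytosine with a coverage of at least 10 against its position in the transcript (nt), MCF10A above and MDA-MB-468 in the middle, with 95% Wilson intervals as thin lines, filled points for called m5C sites, and the 5′UTR, CDS and 3′UTR with exon starts at the foot. The 82 cytosines of MCF10A sit at 70% or more, whereas in MDA-MB-468 the 85 called cytosines all lie in the 3′UTR.

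Along CASP14 the unconverted share of MCF10A was high in both UTRs. In the 5′UTR, 100 of 102 counts at 10 cytosines of exon 1 were unconverted, 98% (93.1% to 99.5%). In the 3′UTR, 786 of 796 counts at 70 cytosines were, 98.7% (97.7% to 99.3%). The CDS held 2 cytosines with enough coverage, both in exon 4, each with 7 unconverted reads of 10, and together 70% (48.1% to 85.5%). That interval, like those of the UTRs, sums neighbouring cytosines that can share reads, so nothing is read from their separation. Each of the 2 values rests on 10 reads, with an interval of 39.7% to 89.2%. This overlaps the 72.2% to 100% of a 5′UTR cytosine with 10 unconverted reads of 10. Exons 2, 3, 5 and 6 had no cytosine with a coverage of 10 in MCF10A.

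With the minimum lowered to 5 reads, 441 CASP14 cytosines of MCF10A could be read and 96.8% of 3402 counts were unconverted. Exon 1 then gave 98.5%, exon 3 gave 100% of 84 counts, exon 4 gave 66% (58.9% to 72.4%) and exon 7 gave 98.6%. Exon 6 rested on 10 counts, of which 8 were unconverted, and exons 2 and 5 still had no site. The summed share of exon 4 was thus lower than those of exons 1, 3 and 7 at this minimum too. Its site values, from 50% to 80%, overlapped those of exon 7, from 40% to 100%. They did not overlap those of exon 1, from 87.5% to 100%, or exon 3, all at 100%. The 26 cytosines of exon 4 can share reads with one another, the 2 above among them, so nothing is read from the difference. The number of called cytosines moved with this choice from 82 to 440.

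In MDA-MB-468 the first 6 exons of CASP14 had summed unconverted shares between 0.936% (exon 5) and 1.55% (exon 3), and none of their cytosines was called. The 5′UTR gave 1.39% (1.24% to 1.56%) and the CDS 1.09% (1.02% to 1.17%), both below the background of the line. The 3′UTR gave 6.79% (6.51% to 7.08%), and all 85 called cytosines were there. The same 3′UTR was read less deeply than the rest, with a median coverage of 32 reads against 270 in the 5′UTR and 291 in the CDS. The mean of the site percentages over the whole transcript, which gives each cytosine the same weight, was 7.93% in place of 2.57%.

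**Figure D2:**
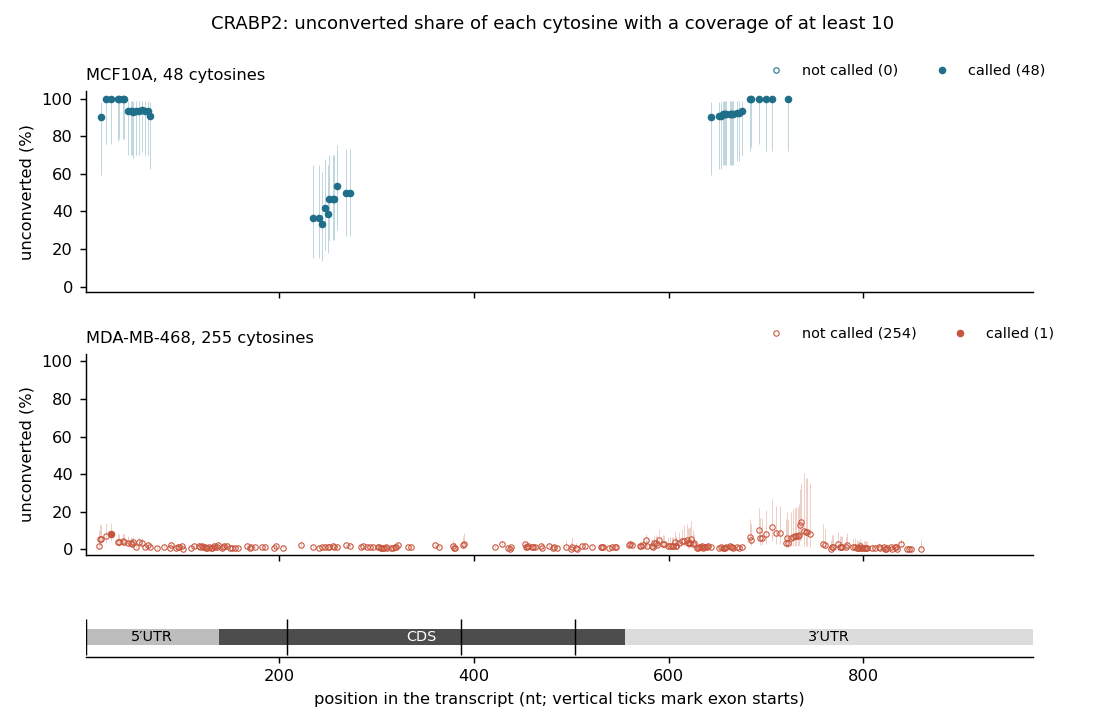
Unconverted share (%) of each CRABP2 cytosine with a coverage of at least 10 against its position in the transcript (nt), drawn as for CASP14. In MCF10A the 5′UTR and 3′UTR cytosines lie at 90% or more and the 11 cytosines of exon 2 between 33.3% and 53.3%, while in MDA-MB-468 the highest of 255 cytosines is at 14.3%.

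CRABP2 showed 3 separate stretches in MCF10A. In exon 1, all within the 5′UTR, 224 of 235 counts at 17 cytosines were unconverted, 95.3% (91.8% to 97.4%), with site values from 90% to 100%. In exon 4, all within the 3′UTR, 218 of 232 counts at 20 cytosines were, 94% (90.1% to 96.4%), again from 90% to 100%. In exon 2, within the CDS, only 65 of 147 counts at 11 cytosines were unconverted, 44.2% (36.4% to 52.3%), with site values from 33.3% to 53.3%. At this minimum of 10 reads the site values of exon 2 did not overlap those of exons 1 and 4. The 11 cytosines of exon 2 lie within 39 nt and share reads, so they are close to 1 observation of those reads. With the minimum at 5 reads the CDS stayed lowest at 57.8%, while the 5′UTR, at 84.5%, fell below the 3′UTR, at 90.7%. The site values then overlapped, from 40% to 100% in exons 1 and 4 and from 33.3% to 87.5% in exon 2. Exons 1 and 2 had the same median of 71.4%. Exon 3, which had no cytosine with 10 reads, then gave 53% (44% to 61.8%) of 117 counts.

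In MDA-MB-468 the regions of CRABP2 lay within a narrow range, 1.53% in the 5′UTR, 1.25% in the CDS and 1.55% in the 3′UTR. The called cytosine was at chr1:156675349 in exon 1, with 8.21% unconverted at a coverage of 134. The 5 highest values at a coverage of at least 20 lay in the 3′UTR between positions 156669636 and 156669679, from 8.82% to 14.3% at coverages of 21 to 49, and none of them was called.

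**Figure D3:**
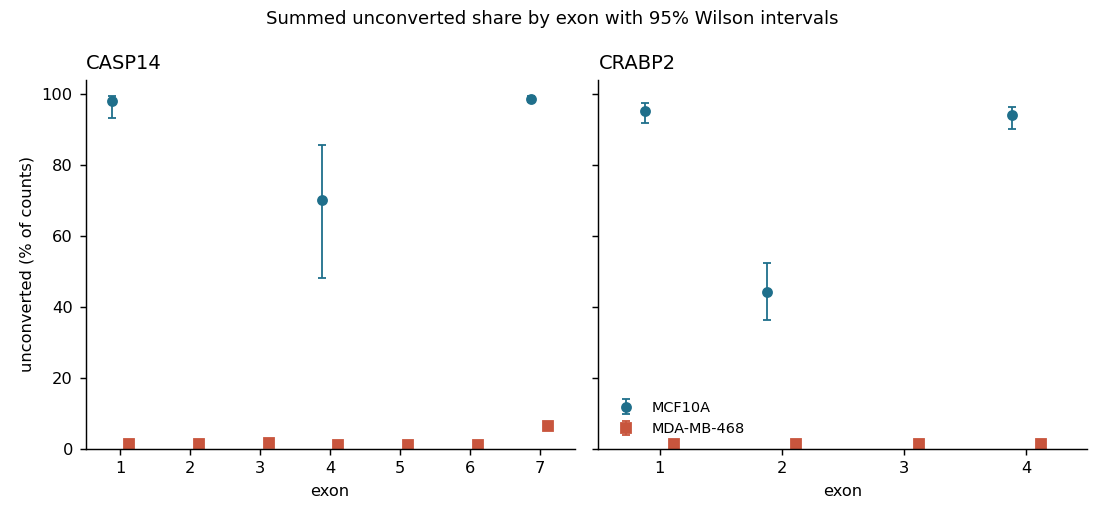
Summed unconverted share (% of counts) by exon for CASP14 and CRABP2, circles for MCF10A and squares for MDA-MB-468, with 95% Wilson intervals as bars. Exons without a cytosine of coverage 10 have no MCF10A point. Exon 4 of CASP14 (70%) and exon 2 of CRABP2 (44.2%) lie below the other MCF10A exons, and exon 7 of CASP14 (6.46%) lies above the other MDA-MB-468 exons.

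The 2 libraries could be set side by side at 52 CASP14 and 48 CRABP2 cytosines with a coverage of 10 in both. At the CASP14 cytosines the unconverted share ran from 70% to 100% in MCF10A (median 100%) and from 0.547% to 23.8% in MDA-MB-468 (median 10%). At the CRABP2 cytosines it ran from 33.3% to 100% (median 92%) and from 0.776% to 11.8% (median 1.55%). The coverage minimum shapes these ranges. The CASP14 cytosines of MDA-MB-468 with 90.9%, at positions 15168038 to 15168047, are not among the shared ones, since they did not reach 10 reads in MCF10A. By Fisher's exact test at each site, two-sided and adjusted over all 812729 sites kept in both lines, 50 of 52 and 48 of 48 were higher in MCF10A and 0 were higher in MDA-MB-468. Over all those sites 0.0691% were called higher in MCF10A and 0.0202% higher in MDA-MB-468, and since the rule used this contrast nothing is read from the members' counts. The 2 CASP14 cytosines that did not pass, at positions 15168315 and 15168744, had 9 and 10 unconverted reads of 11 in MCF10A, where MDA-MB-468 had 3 of 22 and 4 of 19. The 50 CASP14 cytosines made up 9.45%, and the 48 of CRABP2 9.07%, of the 529 nuclear sites called higher in MCF10A.

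The reads behind these shares can be given at the same cytosines. At the shared CASP14 cytosines the unconverted reads per site numbered 7 to 15 in MCF10A (median 11) and 1 to 10 in MDA-MB-468 (median 4). The converted reads had a median of 0 in MCF10A but 26.5 in MDA-MB-468. At the shared CRABP2 cytosines the unconverted reads numbered 4 to 15 (median 11) and 1 to 26 (median 7), while the median of the converted reads was 1 in MCF10A but 616 in MDA-MB-468. Since a cytosine of MCF10A had to reach 10 reads and had few converted ones, the minimum itself sets the level of its unconverted reads, and nothing is read from their likeness between the libraries. In exon 4 of CASP14 the 2 shared cytosines had 7 unconverted and 3 converted reads each in MCF10A, against a median of 5 unconverted and 873 converted reads in MDA-MB-468. In exon 2 of CRABP2 the medians were 7 unconverted and 7 converted reads in MCF10A, and 17 and 1227 for MDA-MB-468.

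In MDA-MB-468, where every cytosine of the first 6 exons of CASP14 was kept, the mean unconverted reads per cytosine of these exons lay between 2.74 (exon 6) and 6.25 (exon 4), while the mean converted reads ranged from 182 (exon 3) to 657 (exon 4).

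Within MDA-MB-468 the share of a cytosine was tied to its depth. Of the 564 CASP14 cytosines, the 92 with a coverage of 10 to 19 had a summed unconverted share of 23.9% with a median of 3 unconverted reads, and 33 of them were called. The 150 with 20 to 49 reads gave 7.97% (median 2 unconverted reads), the 136 with 50 to under 200 reads gave 3.47% (3) and the 186 with 200 or more gave 1.84% (5). CRABP2 followed the same order, from 9.09% and 7% in the 2 lower classes, with 4 and 20 cytosines, to 2.41% and 1.27% in the 2 higher ones. Coverage is the denominator of the share, so the measures are not independent, and the relation is given as a description.

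**Figure D4:**
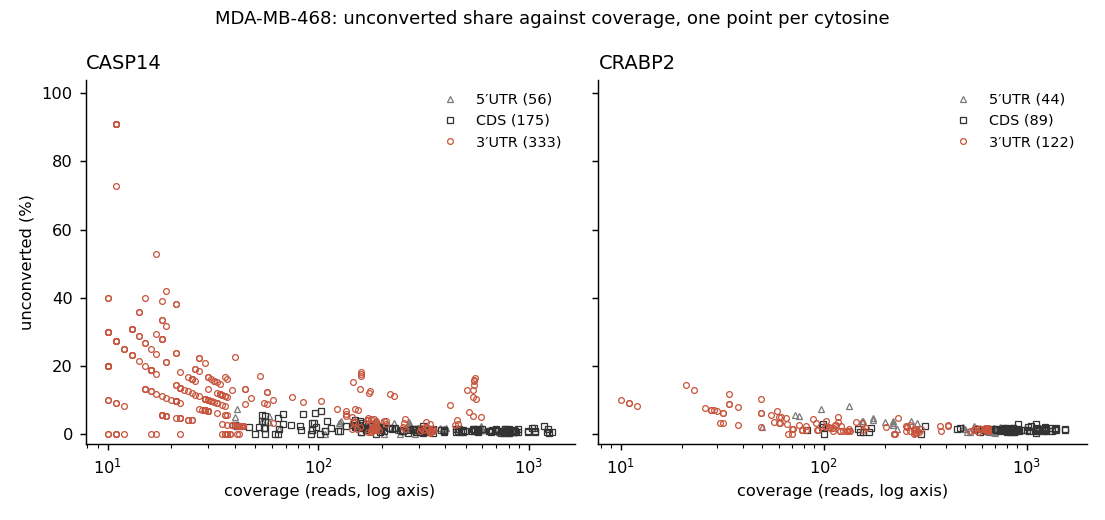
Unconverted share (%) of each cytosine against its coverage (reads, log axis) in MDA-MB-468, with triangles for the 5′UTR, squares for the CDS and circles for the 3′UTR. The CASP14 cytosines near 90.9% have 11 reads, and the group at coverages of about 420 to 589 that stands above the rest lies in the repeated part of the 3′UTR.

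Called cytosines came in series. A run is given here as at least 3 called cytosines of 1 gene and line with no gap over 10 nt. CASP14 had 7 runs in MCF10A, which left out 5 of its 82 calls, and CRABP2 had 3, which left out 1 of its 48. The longest run of CASP14 in MCF10A, at chr19:15168080-15168149 in the 3′UTR, held 22 called cytosines with a summed share of 98.1% (95.6% to 99.2%). In MDA-MB-468, 17 cytosines of that stretch reached 5 reads (median coverage 6) and 89.3% of their counts were unconverted, so at this stretch, under the minimum of 10, the MDA-MB-468 library was also mostly unconverted. The same was seen at chr19:15168183-15168199, with 97.6% in MCF10A and 70.3% at 7 cytosines with a median coverage of 5 in MDA-MB-468. At the run in exon 1, chr19:15160328-15160347, MCF10A had 97.6% while 10 cytosines of MDA-MB-468 had 2.38% at a median coverage of 244. The 3 CRABP2 runs, of 17, 11 and 19 called cytosines, had 3.06%, 1.40% and 1.34% in MDA-MB-468.

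In MDA-MB-468 the runs of CASP14 all lay in the 3′UTR, and 10 of its 85 calls were outside them. The highest share was at chr19:15167997-15168047, with 17 called cytosines, 48.5% (42.6% to 54.5%) and coverages of 11 to 21 reads. At its downstream end 5 cytosines, from position 15168038 to 15168047, had 10 unconverted reads of 11 each, 90.9%. The sites with the highest shares at a coverage of at least 20 were positions 15168016 and 15168018 of the same run, each with 8 unconverted reads of 21, 38.1%. At the 12 cytosines of this run that reached 5 reads in MCF10A, all counts were unconverted. Further runs were at chr19:15167177-15167206 with 28.4%, chr19:15168252-15168275 with 22.7%, chr19:15168327-15168368 with 11.6% and chr19:15168728-15168747 with 17.6%, and at these the MCF10A counts were 98.9% to 100% unconverted.

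Deeper runs of MDA-MB-468 lay between the runs that end at position 15168368 and start at position 15168728. The runs at chr19:15168478-15168488 and chr19:15168502-15168520 had shares of 10.7% and 11.4% at coverages of 420 to 589 reads, against a median of 32 for the 3′UTR. Bases of this part of the 3′UTR recur in the genome. The 31 nt around each of 32 kept cytosines were found more than once in GRCh37. Those 32 cytosines had an unconverted share of 8.82%, and 23 of them were called, while the 532 others had 2.01% and 62 calls. Reads of other copies can be placed in such a stretch, and how much of its counts came from elsewhere was not tested. In MCF10A the 31 nt around every kept cytosine of both genes occurred once as they stand. With all cytosines left out whose 31 nt, with every C read as T, occur more than once, the share of CASP14 in MDA-MB-468 was 1.83% with 57 calls.

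Unconverted reads were also found on the strand opposite to the transcripts. In MCF10A, 15 opposite-strand cytosines of CASP14 exon 7 reached 10 reads and 95.5% (90.9% to 97.8%) of their counts were unconverted, and 2 of CRABP2 exon 4 did, with 21 of 21 counts unconverted. At 5 reads or more there were 158 such cytosines over the exons of CASP14 with 98.2% of 1018 counts unconverted, and 50 over those of CRABP2 with 98.2% of 328. Exon 4 of CASP14 gave 98.5% (95.6% to 99.5%) on the opposite strand, against 66% on its own strand. Exon 2 of CRABP2 likewise gave 96.9% (92.9% to 98.6%) on the opposite strand, against 59.1% on its own. In MDA-MB-468 no opposite-strand cytosine of the exons reached 10 reads, and at 5 or more the shares were 99.3% of 146 counts at CASP14 and 99.4% of 169 at CRABP2. The opposite strand of exons over the whole files, at 10 reads or more, was 33.3% unconverted for MCF10A and 8.63% for MDA-MB-468. Reads of any nucleic acid that bisulfite did not convert are counted in the same way as reads with m5C, and their part in the shares and calls of MCF10A was not tested. On the opposite strand of these exons, at 5 reads or more, both libraries thus lay between 98.2% and 99.4%, while on the strand of the transcripts they lay apart. GENCODE places no other gene opposite to the exons of either gene. It places an exon of a long noncoding RNA opposite to intron 1 of CRABP2, where no opposite-strand cytosine reached 5 reads in either library.

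Intronic cytosines were looked at on both strands. In MCF10A no intronic cytosine of either gene, on either strand, reached 5 reads, so the unconverted reads on both strands were seen over exons. In MDA-MB-468, 371 same-strand intronic cytosines of CASP14 reached 10 reads and 2.33% (2.07% to 2.61%) of their counts were unconverted. For CRABP2, 63 did, with 1.03% (0.576% to 1.83%). On the opposite strand of the introns, 56 cytosines of CASP14 reached 10 reads in MDA-MB-468. Of their counts 99.8% (99.3% to 99.9%) were unconverted, as described further below. No opposite-strand intronic cytosine of CRABP2 reached 10 reads there.

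Predicted structure depended on the criterion. In a fold of the whole transcripts at 70 degrees, with an MEA gamma of 0.1 taken as the setting that the methods call alpha, 6.63% of the CASP14 cytosines and 3.26% of those of CRABP2 were paired. Of the called cytosines, 5 of 82 CASP14 cytosines in MCF10A, 2 of 85 in MDA-MB-468 and 0 of 48 CRABP2 cytosines in MCF10A were paired. In the CASP14 5′UTR run of MCF10A 4 of 8 called cytosines were paired. A weaker criterion, a pairing probability over 0.5, held for 21 and 24 of the called CASP14 cytosines and for 19 of the 48 of CRABP2 in MCF10A. Among all kept cytosines of MDA-MB-468 it held for 216 of 564 in CASP14 and 116 of 255 in CRABP2.

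Both genes were placed among all coding genes with at least 20 kept cytosines in a line. In MCF10A the summed unconverted share had a median of 1.79% over 7270 genes, 8 genes exceeded 50%, and CASP14 and CRABP2 ranked 2 and 3. In MDA-MB-468 the median was 1.45% over 6432 genes and the ranks were 898 and 3561. Among the 693669 nuclear kept sites of MCF10A with a coverage of 10 to 16 reads, the range in which the members lie, the median share was 0 and 0.0587% of sites were at 90% or more. Of 552 nuclear sites at 90% or more in MCF10A, 78 were in CASP14 and 37 in CRABP2. The 2 genes were chosen with these shares known, so nothing is read from their ranks or their part of those sites. The genes most like CASP14 by the distance between the pairs of shares in the 2 lines, over 5220 genes, were MGP, which encodes matrix Gla protein (99.5% for MCF10A and 5.34% for MDA-MB-468, distance 3.12 points), then CRABP2 (15.5 points) and the interferon-inducible IFI27 (26.7 points). For CRABP2 they were IFI27 (71.4% and 1.41%, distance 11.2 points), CASP14 and MGP (17.3 points).

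Lists of related genes, from which the 2 members were left out, had summed shares of at most 6.87% per gene. Of 29 genes of retinoid transport, metabolism and signalling, 16 had kept sites in MCF10A, and 18 had them in MDA-MB-468, with summed shares of 0.411% to 3.79% and 0% to 3.67%. None of their 4028 shared sites was differential in either direction. Among them TGM2, a transglutaminase induced by retinoic acid, had 1.18% and 0.902%, and RXRA, the partner receptor of the retinoic acid receptors, 1.78% and 0.906%. Of 31 names on the cornification list, 30 were found in the annotation, LORICRIN among them but not LOR. Of these genes 6 and 8 had sites, with shares up to 4.51% and 5.63%, and 0 of 49 shared sites was differential. The envelope proteins EVPL and PPL and the protease KLK5 had the most. EVPL had 17 cytosines at 1.69% in MCF10A and 1461 at 1.96% in MDA-MB-468, PPL had 502 at 2% in MCF10A and none in MDA-MB-468, and KLK5 had 439 at 1.97% in MDA-MB-468 and none in MCF10A. Of 18 caspases and their regulators, 13 and 10 had sites, with shares up to 3.64% and 6.87%, and 0 of 212 shared sites was differential. CFLAR, an inhibitor of caspase-8, had 1.71% at 321 cytosines in MCF10A, DIABLO, an antagonist of inhibitor of apoptosis proteins, 1.99% at 145, and CASP4, an inflammatory caspase, 1.88% at 61. In MDA-MB-468 these 3 had 1.41% at only 6 cytosines, 1.10% at 117 and 0.365% at 44. At the shares called over all sites, 0.0691% and 0.0202%, few or no calls would fall on lists of these sizes, so nothing is read from their zeros.

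The minimum coverage cut through similar values. CASP14 cytosines with 9 reads in MCF10A had a median of 100% (59 sites) as did those with 10 reads (32 sites), and in MDA-MB-468 the medians were 22.2% (39 sites) and 20% (18 sites). CRABP2 in MCF10A had 88.9% (14 sites) and 100% (6 sites), and in MDA-MB-468 it had no cytosine with 9 reads and 1 with 10 reads, at 10%.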

How the data were processed

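RNA bisulfite sequencing of MCF10A and MDA-MB-468 was analysed, 1 library each. The authors deposited, per cytosine, the counts of unconverted (m5C) and converted reads, not normalized, from a coverage of 5. The labels name Trim Galore and Bismark and the build hg19, whereas the methods state trimming with Trim Galore, alignment with MeRanGs and calling with MeRanCall, with a cap on duplicated reads, and use Bismark for DNA. No structure filter had been applied to the files.

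Cytosines covered by 10 reads or more on same-strand exons of GENCODE release 44 basic transcripts or on the mitochondrial chromosome were kept. Each was tested against the background by a one-sided Fisher's exact test, and lines were compared per site by a two-sided Fisher's exact test, each adjusted by Benjamini-Hochberg over all sites at 0.05. P-values cover reads of 1 library per line. Full transcripts were folded with ViennaRNA 2.7.2 at 70 degrees, pairing distance 150 nt and MEA gamma 0.1. Windows of 31 nt were counted on both strands of GRCh37. Python 3.11.15, numpy 2.4.6, pandas 2.3.3, scipy 1.17.1, numba 0.67.0 and matplotlib 3.10.9 were used. The tests were checked on simulated counts. The members and gene lists were chosen with earlier results of these data known. Named sites were the 5 highest and the 5 most different at a coverage of at least 20, and runs of at least 3 calls. No MCF10A member reached a coverage of 20, so no MCF10A site and no difference was named by that rule. The 3 most like genes, and the 3 genes of each list with most sites, were named by rule, except items not reported here, and positions 15168315, 15168744 and 15168038 to 15168047 after their values were seen. Alternatives covered the background, test, coverage, structure, transcript, neighbours and repeated sequence.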

Additional observations from a re-analysis of the deposited data

Results flagged for a closer look

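A signal lay outside the exons and the strand of the transcripts. On the strand opposite to intron 1 of CASP14 in MDA-MB-468, 56 cytosines between chr19:15161559 and 15161901 reached 10 reads, with coverages of 15 to 41, and 99.8% (95% Wilson interval 99.3% to 99.9%) of 1226 counts were unconverted, 3 counts being converted. On the strand of the transcript, 209 cytosines of the same intron had 2.38% of 8587 counts unconverted. At a minimum of 5 reads the opposite strand gave 92.4% at 77 cytosines. In MCF10A no cytosine of this intron reached 5 reads on either strand. There is no untreated library to set beside it.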

How the results depend on the processing

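Of 87 values recomputed under another setting for the calls, the differential sites and the summed shares, 60 stayed within the interval of the reported share or within 1.5 times the reported count, 27 did not, and no direction was reversed. Lowering the minimum coverage to 5 gave 440 and 155 calls for CASP14 and CRABP2 in MCF10A, 137 for CASP14 in MDA-MB-468, 228 and 142 differential sites, and shares of 96.8% and 78.2% in MCF10A and 2.90% for CASP14 in MDA-MB-468. A minimum of 20 left no MCF10A site, and gave 53 calls and 2.34% for CASP14 in MDA-MB-468. Requiring a share of 20% left 41 calls for CASP14 and 0 for CRABP2 in MDA-MB-468. Leaving out cytosines with a called neighbour within 10 nt left 1 call for each gene in MCF10A and 4 for CASP14 in MDA-MB-468, with shares of 100%, 100% and 1.43%, and left 1 differential site for CRABP2 and no site to test for CASP14. Without paired cytosines the share of CASP14 in MDA-MB-468 was 2.71%. Without those of a pairing probability over 0.5 it was 2.79%, and CRABP2 had 29 calls in MCF10A, 0 in MDA-MB-468 and 29 differential sites. The mean of site percentages was 7.93% for CASP14 and 2.22% for CRABP2 in MDA-MB-468. Leaving out repeated converted sequence, a setting chosen after seeing the data, gave 1.83% for CASP14 in MDA-MB-468. Each setting that leaves sites out lowers counts by construction, and other causes of the changes were not tested.

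No paired analysis was possible because each line has 1 library. At the coverages of the MCF10A members, 10 to 16 reads, the fewest unconverted reads called were 4, so shares under 40% at 10 reads and under 25% at 16 reads were not detectable.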
